A study of Mus musculus with 18 samples.

Results

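The genes described here are 10 genes of the extracellular matrix and the contractile cytoskeleton: Col1a1, Col1a2, Col3a1, Col5a1, Fbn1, Postn, Thbs1, Fstl1, Tagln and Acta2. They were chosen by name, as the rows whose Ensembl identifiers map to these symbols in the mouse GENCODE M21 annotation, and are 10 of 54446 genes in the count tables. All 10 matched a single row, and all 10 passed the filter on low counts that left 19910 genes for testing. The names were picked with values of these libraries known, so every difference in a member between groups is given as a description, without a p-value. Where members are counted by a threshold, the count only places them in the table of all genes, with the share of all genes beside it, and nothing is read from it.

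The libraries hold nascent RNA of mouse embryonic stem (mES) cells. The cells were labelled with 1 mM 5-ethynyl uridine (EU), a uridine analogue that is built into RNA as it is made, for 10, 20 or 40 min. Wild-type (WT) and Tet2 knockout (Tet2-KO) cells were each labelled for the 3 times in 3 replicates, which gave 18 libraries in 6 groups. Both genotypes were grown in serum with LIF and with the inhibitors CHIR99021 and PD0325901, and were passaged on gelatin to clear feeder cells before the experiment. Each genotype was 1 cell line as far as the sources used here say, so the replicates are dishes and a difference between genotypes cannot be told apart from a difference between lines. Each combination of genotype and EU time was its own set of dishes, so a feature of one set cannot be told apart from its genotype and time.

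Matrix genes encode what cells lay down around themselves. Type I collagen is a trimer of Col1a1 and Col1a2 chains, type III collagen is made of Col3a1, and type V collagen, with Col5a1, starts and limits the width of collagen fibrils. Fibrillin-1 (Fbn1) builds microfibrils, which carry elastin and hold latent TGF-beta. Periostin (Postn), thrombospondin-1 (Thbs1) and follistatin-like 1 (Fstl1) are secreted proteins that act on cells and on matrix assembly, and thrombospondin-1 can activate latent TGF-beta. Smooth muscle actin (Acta2) and transgelin (Tagln) are actin cytoskeleton proteins of smooth muscle cells and myofibroblasts, transcribed through serum response factor. In fibroblasts these genes are strongly transcribed, whereas ES cells are known rather for laminins and type IV collagen.

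In mm10 the collagen genes lie apart, Col1a1 (ENSMUSG00000001506) at chr11:94936224-94953042 on the plus strand, Col1a2 (ENSMUSG00000029661) at chr6:4504814-4541544 on the plus strand, Col3a1 (ENSMUSG00000026043) at chr1:45311538-45349706 on the plus strand and Col5a1 (ENSMUSG00000026837) at chr2:27886425-28039514 on the plus strand. The microfibril and matricellular genes are Fbn1 (ENSMUSG00000027204) at chr2:125300594-125507993 on the minus strand, Postn (ENSMUSG00000027750) at chr3:54361109-54391037 on the plus strand, Thbs1 (ENSMUSG00000040152) at chr2:118111876-118127133 on the plus strand and Fstl1 (ENSMUSG00000022816) at chr16:37776873-37836514 on the plus strand. The contractile genes are Tagln (ENSMUSG00000032085) at chr9:45929619-45936058 on the minus strand and Acta2 (ENSMUSG00000035783) at chr19:34241090-34255590 on the minus strand.

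RefSeq promoter sequences (GRCm38.p6) were at hand for 7 of the 10 genes. The 250 bases before the start are shown for the 3 whose stretch held no annotated exon, because they span the range of promoter types among the collagens and periostin. Capitals mark CG dinucleotides, the sites of DNA methylation.
Col3a1, chr1:45311288-45311537, plus strand: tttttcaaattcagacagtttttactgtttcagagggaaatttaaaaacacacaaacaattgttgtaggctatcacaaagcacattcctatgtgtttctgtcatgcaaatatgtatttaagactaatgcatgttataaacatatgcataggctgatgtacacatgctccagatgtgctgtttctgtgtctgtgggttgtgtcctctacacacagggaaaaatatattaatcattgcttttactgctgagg
Postn, chr3:54360857-54361106, plus strand: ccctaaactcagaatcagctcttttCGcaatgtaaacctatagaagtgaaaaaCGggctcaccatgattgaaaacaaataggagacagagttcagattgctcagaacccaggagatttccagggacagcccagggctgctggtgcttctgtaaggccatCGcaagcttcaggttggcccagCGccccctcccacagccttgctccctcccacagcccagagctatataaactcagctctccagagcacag
Col5a1, chr2:27886175-27886424, plus strand: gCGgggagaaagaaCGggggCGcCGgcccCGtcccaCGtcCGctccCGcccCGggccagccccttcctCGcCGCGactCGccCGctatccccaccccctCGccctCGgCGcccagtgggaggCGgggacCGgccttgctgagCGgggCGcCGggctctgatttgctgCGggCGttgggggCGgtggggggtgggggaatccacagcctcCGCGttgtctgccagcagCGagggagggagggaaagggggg
Over the 300 bases from 250 before to 50 after the start, the Col3a1 promoter held 0 CG dinucleotides at 37.7% G and C, the Postn promoter 5 at 53%, and the Col5a1 promoter 34 at 75%, against a median of 7 over 32851 promoters. As few CG dinucleotides as Col3a1 were found in 5.4% of promoters, whereas 93% had no more than Col5a1. The other 4 promoters lay between, with 6 in Acta2, 13 in Col1a2, 14 in Fbn1 and 21 in Fstl1. The letters TATAAA, searched on both strands, stood 26 bases before the Postn start and 117 before the Col3a1 start, and were present in 13.6% of all promoters of this length. CCAAT, present in 37.4%, was found on the plus strand of Col1a2 at 109 bases before the start and on the minus strand from its first transcribed base. The CArG box, the motif of serum response factor, was searched only in its strict form: CC, then 6 bases of A or T, then GG. This form was found in none of the 7 windows, Acta2 included, and in 1.63% of all promoters. Boxes with another base in the core were not searched, so the result does not show that sites of this factor are absent.

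The depth was 17931614 to 23069143 reads on genes per library and 44162 to 512186 reads on the ERCC spike-in RNAs, which were added to the captured RNA in proportion to total RNA. Levels are given in 2 ways, in reads for every 1000000 gene reads (CPM, the share of gene reads) and in reads per 1000 ERCC reads, which also follows how much labelled RNA was captured. Reads that could not be given to 1 gene made up 20.9 to 24.9%. Tet2 itself had 13117 to 17092 reads in WT and 9730 to 13011 in Tet2-KO, so reads over the gene did not check the labels, and groups are named below as the libraries are labelled. The 10 genes together took 1582 to 4818 reads per library.

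Of 18 fibroblast markers 9 passed the filter on low counts. Vim had 648 to 966 reads per library, Fbln1 414 to 1292 and Ddr2, a collagen receptor, 319 to 2016, while Mmp2, Timp2, Pdgfrb and Pdgfra had 24 to 186 and Prrx1 at most 96. Among those that did not pass, lumican (Lum) had at most 1 read in any library, S100a4 and Tcf21 at most 2, Mmp3 at most 5, and decorin (Dcn) and Fap at most 6. Thy1 and Meox1 had 1 to 14 reads and Twist1 at most 25. Twist2, which did pass, had at most 16. The summed level of all 18 markers was 140 to 149 CPM in WT at 10 min, 109 to 118 at 20 min and 101 to 109 at 40 min, and 176 to 192, 171 to 176 and 158 to 170 in the libraries labelled Tet2-KO. Ddr2 differed by more than the sum did, with 18.7 ± 2.0 (SD, n = 3) CPM in WT at 10 min and 88.9 ± 1.0 in Tet2-KO. Without it the order of the genotypes turned at all 3 times, at 20 min only narrowly. The other 17 markers summed to 123 to 130 CPM in WT and 87.1 to 104 in Tet2-KO at 10 min. At 20 min they summed to 89.49 to 99.9 and 85.6 to 89.48, and at 40 min to 84.8 to 91.2 and 79.2 to 83.8. The pluripotency genes were abundant: 9 of 10 markers of mES cells, among them Esrrb with at least 13953 reads and Nanog with at least 4971, summed to 3256 to 3389 CPM in WT and 2353 to 2494 in Tet2-KO. Sox2 was listed at 0 in all libraries. It lies within the span of Sox2ot on the same strand but shares 0 of its 2057 exon bases with Sox2ot exons. If reads were counted over whole genes, its reads may be among those not given to 1 gene. How reads were counted is not given in the sources used here, and the 0 says nothing of its transcription. With Lum and Dcn near 0 and other fibroblast markers detected in cells rich in pluripotency genes, the 10 genes are called matrix and contractile genes here.

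Taken as a sum, the 10 genes had their highest share of gene reads in WT at 10 min, at 198 to 216 CPM. The sum was 127 to 136 in WT at 20 min and 121 to 127 at 40 min, against 97.4 to 101, 116 to 122 and 83.1 to 88.2 in Tet2-KO at 10, 20 and 40 min. In WT the 10 min libraries did not overlap with the later ones, and in Tet2-KO the 20 min libraries lay above both other times. Fstl1 supplied the most reads, and the sum hides 2 kinds of behaviour among its members, which were sorted after their values were seen.

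**Figure D1:**
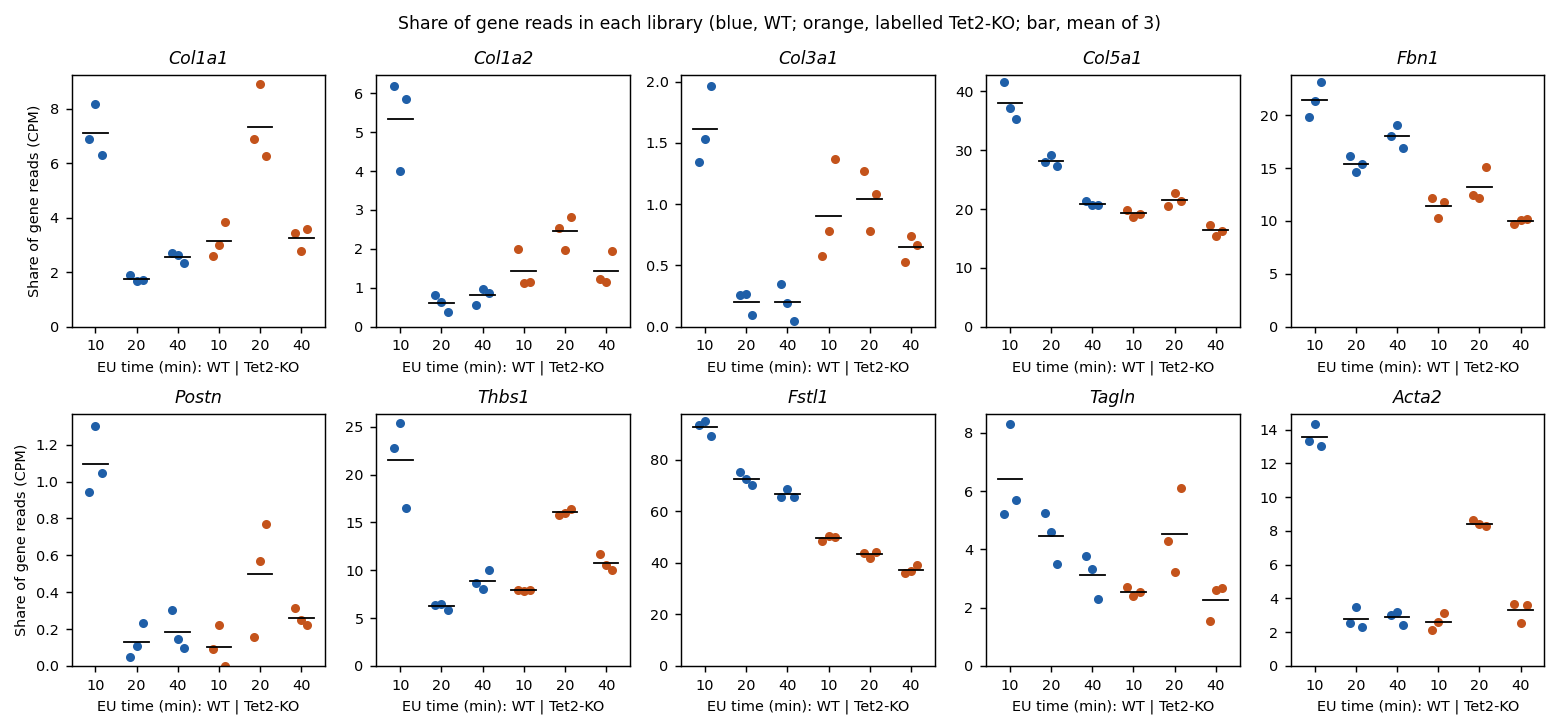
Share of gene reads, in CPM, of each of the 10 genes in each of 18 libraries (points; WT blue, labelled Tet2-KO orange; bars, means of 3). Acta2, for example, sits near 13.6 in WT at 10 min and near 8.43 in Tet2-KO at 20 min, and between 2.13 and 3.69 in all other libraries.

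Per kb of annotated exon, the order of levels in WT at 10 min ran from Fstl1 (18.8 ± 0.6 CPM per kb of exon) over Acta2 (6.18 ± 0.31) and Col5a1 (4.48 ± 0.38) to Thbs1 (3.55 ± 0.75) and Tagln (3.22 ± 0.84), with Fbn1 at 1.77 ± 0.14 and Col1a1 at 1.09 ± 0.15 (SD, n = 3 each). Col5a1 and Thbs1 overlapped between libraries, as did Thbs1 and Tagln, whereas Fstl1 and Acta2 did not overlap with any other member. In WT at 20 min the order differed: Acta2 had 1.27 ± 0.28 and stood level with Fbn1 at 1.27 ± 0.06, below Tagln at 2.24 ± 0.44. Reads were counted over genes in nascent RNA, which holds introns too, so a level per kb of exon ranks genes only roughly.

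Smooth muscle actin showed the clearest pattern. The 3 WT libraries labelled for 10 min gave 13.3, 14.3 and 13.0 CPM, those of 20 min 2.54, 3.49 and 2.33, and those of 40 min 3.03, 3.18 and 2.43. The counterparts from Tet2-KO gave 2.13, 2.61 and 3.15 after 10 min of EU, 8.63, 8.39 and 8.27 after 20 min and 3.69, 2.57 and 3.62 after 40 min. The libraries of WT at 10 min and of Tet2-KO at 20 min were therefore high without overlapping any other, and the other 4 groups overlapped each other. On the log2 scale the share changed by -2.29 (SE 0.17) from 10 to 20 min in WT and by 1.69 (SE 0.17) in Tet2-KO.

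Of type I and type III collagen, Col1a1 was high in the same groups, whereas Col1a2 and Col3a1 were high in WT at 10 min but not set apart in Tet2-KO at 20 min. Col1a1 was at 6.91, 8.18 and 6.30 CPM in WT after 10 min, then at 1.88, 1.69 and 1.72, and finally at 2.69, 2.64 and 2.33 after 40 min. In Tet2-KO it was at 2.58, 3.00 and 3.83, then 6.88, 8.90 and 6.27, then 3.43, 2.77 and 3.57. The WT libraries at 10 min overlapped with the Tet2-KO libraries at 20 min and with no others.
Col1a2, the partner chain, was rarer, at 6.19, 4.0 and 5.84 CPM in WT at 10 min and 0.814, 0.634 and 0.373 at 20 min, against 2.0, 1.11 and 1.15 and 2.54, 1.97 and 2.83 in Tet2-KO. Its 40 min libraries held 0.564, 0.979 and 0.874 in WT and 1.21, 1.14 and 1.95 in Tet2-KO. Unlike for Col1a1, the Tet2-KO libraries at 10 and 20 min overlapped, through 1 library at 10 min with 2.0 CPM. The Col1a2 change from 10 to 20 min was -3.14 (SE 0.31, log2 of the share) in WT and 0.76 (SE 0.29) in Tet2-KO, beside -2.01 (SE 0.19) and 1.23 (SE 0.18) for Col1a1.
Col3a1 gave few reads: 30, 34 and 43 in WT after 10 min, 5, 5 and 2 after 20 min and 8, 4 and 1 after 40 min. The libraries labelled Tet2-KO had 13, 14 and 26 reads after 10 min, 24, 15 and 21 after 20 min and 10, 15 and 12 after 40 min. WT libraries at 20 and 40 min were the lowest for this gene, and the Tet2-KO libraries at 10 min overlapped with both later times. The change from 10 to 20 min was -2.97 (SE 0.50) in WT and 0.21 (SE 0.42) in Tet2-KO.

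Of the secreted regulators, Thbs1 kept to this pattern. It took 22.8, 25.4 and 16.6 CPM in WT after 10 min of EU, 6.36, 6.50 and 5.82 after 20 min and 8.63, 8.08 and 10.1 after 40 min. The Tet2-KO libraries had 7.96, 7.88 and 7.92 after 10 min, 15.8, 15.9 and 16.4 after 20 min and 11.7, 10.6 and 9.98 after 40 min. The lowest WT library at 10 min was close to the Tet2-KO libraries at 20 min, and both groups lay above all the rest. Postn, with 21, 29 and 23 reads in WT at 10 min, had 1, 2 and 5 after 20 min and 7, 3 and 2 after 40 min. In Tet2-KO it had 2, 4 and 0 reads after 10 min, 3, 11 and 15 after 20 min and 6, 5 and 4 after 40 min, the 0 allowing up to 3 reads. The Postn level outside WT at 10 min thus rests on at most 15 reads in a library. The log2 change of the share from 10 to 20 min was -1.79 (SE 0.13) in WT and 1.02 (SE 0.13) in Tet2-KO for Thbs1, and -2.99 (SE 0.64) and 2.24 (SE 0.74) for Postn.

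From 10 to 20 min the other 4 members moved less in WT. In Tet2-KO this did not hold for Tagln, which changed by 0.83 (SE 0.25, log2 of the share), more than Col1a2 or Col3a1. Fstl1 had 92.6 ± 3.0 (SD, n = 3) CPM in WT at 10 min, 72.6 ± 2.5 at 20 min and 66.6 ± 1.8 at 40 min, and 49.6 ± 1.0, 43.3 ± 1.3 and 37.3 ± 1.5 in Tet2-KO. All 9 WT libraries lay above all 9 Tet2-KO libraries for this gene. How many of all genes separated in this way was not counted. Col5a1, which shares its fibrils with type I collagen, went from 38.0 ± 3.2 to 28.2 ± 1.0 and 20.9 ± 0.4 in WT, and was at 19.3 ± 0.6, 21.6 ± 1.1 and 16.4 ± 0.9 in Tet2-KO. For Fbn1 the values were 21.4 ± 1.7, 15.4 ± 0.8 and 18.02 ± 1.09 in WT and 11.4 ± 1.0, 13.2 ± 1.6 and 10.0 ± 0.3 in Tet2-KO, so that only 1 Tet2-KO library at 20 min reached into the range of WT. Tagln, the second contractile gene, was at 6.41 ± 1.67, 4.44 ± 0.88 and 3.13 ± 0.76 in WT and at 2.54 ± 0.16, 4.54 ± 1.47 and 2.28 ± 0.65 in Tet2-KO. Its libraries scattered widely, and WT at 10 and 20 min overlapped. Exons of Tagln share 1241 of 1988 bases with Gm48529 on the opposite strand, and exons of Fbn1 share 2442 of 12128 with Gm9913, also opposite. Smaller opposite overlaps were 108 bases of Tagln with Pcsk7, 99 and 113 of 8490 in Col5a1 and 208 of 6073 in Thbs1. On the same strand, Col3a1 shares 141 of 9816 exon bases with Gm47302, and Col1a2 overlaps Gm43921 with 0 exon bases shared. Whether counting used the strand is not given in the sources used here, so reads of these pairs may be mixed.

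**Figure D2:**
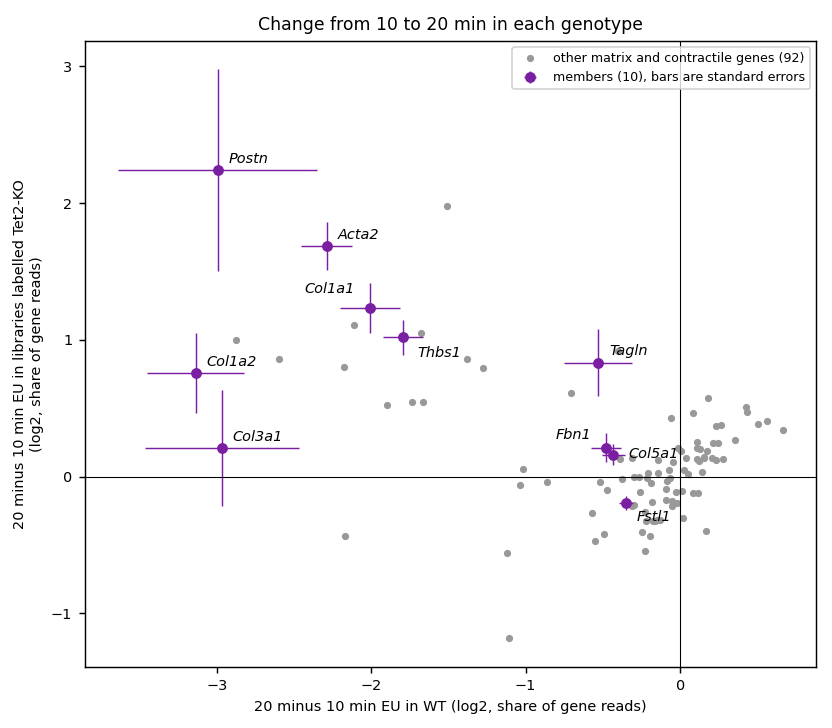
Change of the share of gene reads from 10 to 20 min of EU (log2) in WT on the horizontal axis and in libraries labelled Tet2-KO on the vertical axis, for the 10 genes (purple, with standard errors) and 92 other matrix and contractile genes (grey). Acta2, Col1a1, Thbs1 and Postn lie at -1.79 or below in WT and at 1.02 or above in Tet2-KO, while Fstl1, Col5a1 and Fbn1 lie at -0.35, -0.43 and -0.48 in WT and at -0.20, 0.16 and 0.21 in Tet2-KO.

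Across the 10 genes, the median log2 change of the share from 10 to 20 min was -1.90 in WT, beside -0.02 over all genes tested, and 0.80 in Tet2-KO, beside 0.0019. Genes were counted as lower or higher at an adjusted p under 0.05 (edgeR quasi-likelihood test, adjusted over all genes). By this count, which is no test of genes picked from these libraries, 9 of the 10 were lower in WT, as were 11.1% of all genes tested. In Tet2-KO 5 were higher (Col1a1, Postn, Tagln, Acta2 and Thbs1), as were 11.2% of all genes, and Fstl1 was lower, as were 8.27%. Without the third Tet2-KO library at 20 min, which had the most Tagln and Postn reads of its group, 3 were higher. The change of the Tet2-KO minus WT difference from 10 to 20 min was positive and past the threshold for 9 of 10, all but Fstl1, beside 2.37% of all genes. Its size was 3.97 (SE 0.24, log2) for Acta2, 3.24 (SE 0.27) for Col1a1, 2.81 (SE 0.18) for Thbs1 and 0.59 (SE 0.11) for Col5a1. These contrasts at 20 min were added after the values had been seen.

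Libraries were also compared by rank alone. For 9 members every WT library at 10 min lay above every WT library at 20 min, all but Tagln, as for 16.0% of the genes tested. Every Tet2-KO library at 20 min lay above every one at 10 min for 5 members (17.9% of genes), and above every WT library at 20 min for 5 (22.8%). Every WT library at 10 min lay above every Tet2-KO library at 10 min for 9 members, all but Col3a1 (27.1%). The full pattern, WT at 10 min above WT at both later times and Tet2-KO at 20 min above Tet2-KO at both other times in every library, was met by 71 genes, or 0.357%, among them Col1a1, Col5a1, Acta2 and Thbs1.

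Between 10 and 40 min of EU, all 10 members lost share in the WT fit, beside 29.5% of all genes, by log2 values from -0.25 (SE 0.10) for Fbn1 to -2.96 (SE 0.49) for Col3a1. In Tet2-KO 1 member was higher (Thbs1, 0.44, SE 0.13; 16.5% of genes were higher) and 2 were lower (Fstl1, -0.41, SE 0.05, and Col5a1, -0.24, SE 0.08; 20.0% were lower). The call on Thbs1 was lost without the first Tet2-KO library at 40 min, and that on Col5a1 without the first Tet2-KO library at 10 min or without either of the other two at 40 min, which left 1 member lower. The Tet2-KO minus WT difference was larger at 40 than at 10 min for 7 members (5.89% of genes), with 2.56 (SE 0.25) for Acta2, 2.71 (SE 0.43) for Col1a2 and 1.72 (SE 0.18) for Thbs1.

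Per ERCC read, labelled RNA accumulates with time, and 95.1% of all genes were higher at 20 than at 10 min in WT. Against that rise, Acta2 had 0.636 ± 0.086 (SD, n = 3) reads per 1000 ERCC reads in WT after 10 min, 0.414 ± 0.118 after 20 min and 0.714 ± 0.123 after 40 min. Tet2-KO had 0.252 ± 0.058, 1.74 ± 0.08 and 1.32 ± 0.34. Col1a1 likewise stayed between 0.242 and 0.416 in the WT libraries at 10 and 20 min, and reached 1.32, 1.92 and 1.32 in Tet2-KO at 20 min. Thbs1 went from 1.02 ± 0.29 to 0.919 ± 0.103 and 2.198 ± 0.180 in WT, and from 0.756 ± 0.046 to 3.31 ± 0.24 and 4.29 ± 0.64 in Tet2-KO. By the same count 4 members were lower at 20 than at 10 min in WT, with log2 changes of -1.47 (SE 0.33) for Col1a2, -1.38 (SE 0.69) for Postn, -1.32 (SE 0.55) for Col3a1 and -0.63 (SE 0.20) for Acta2. Of all genes tested 18, or 0.0904%, were lower there. The count ran from 3 to 6 when single libraries were left out. Postn was near the threshold and dropped out in 15 of these 18 fits, with the replicate block, with DESeq2 and with no filter, and Col3a1 dropped out without the third WT library at 20 min, whereas without the third WT library at 10 min Col1a1 and Thbs1 were counted too. In every library of WT at 10 min the same 4 genes lay above every library at 20 min, as 0.116% of genes did. In Tet2-KO all 10 members were higher at 20 than at 10 min, as were 85.8% of all genes. The Tet2-KO minus WT difference changed upward from 10 to 20 min for 7 members (0.362% of genes), by 3.42 (SE 0.28) for Acta2, 2.71 (SE 0.31) for Col1a1 and 2.28 (SE 0.21) for Thbs1, and downward for Fstl1 (50.4%).

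**Figure D3:**
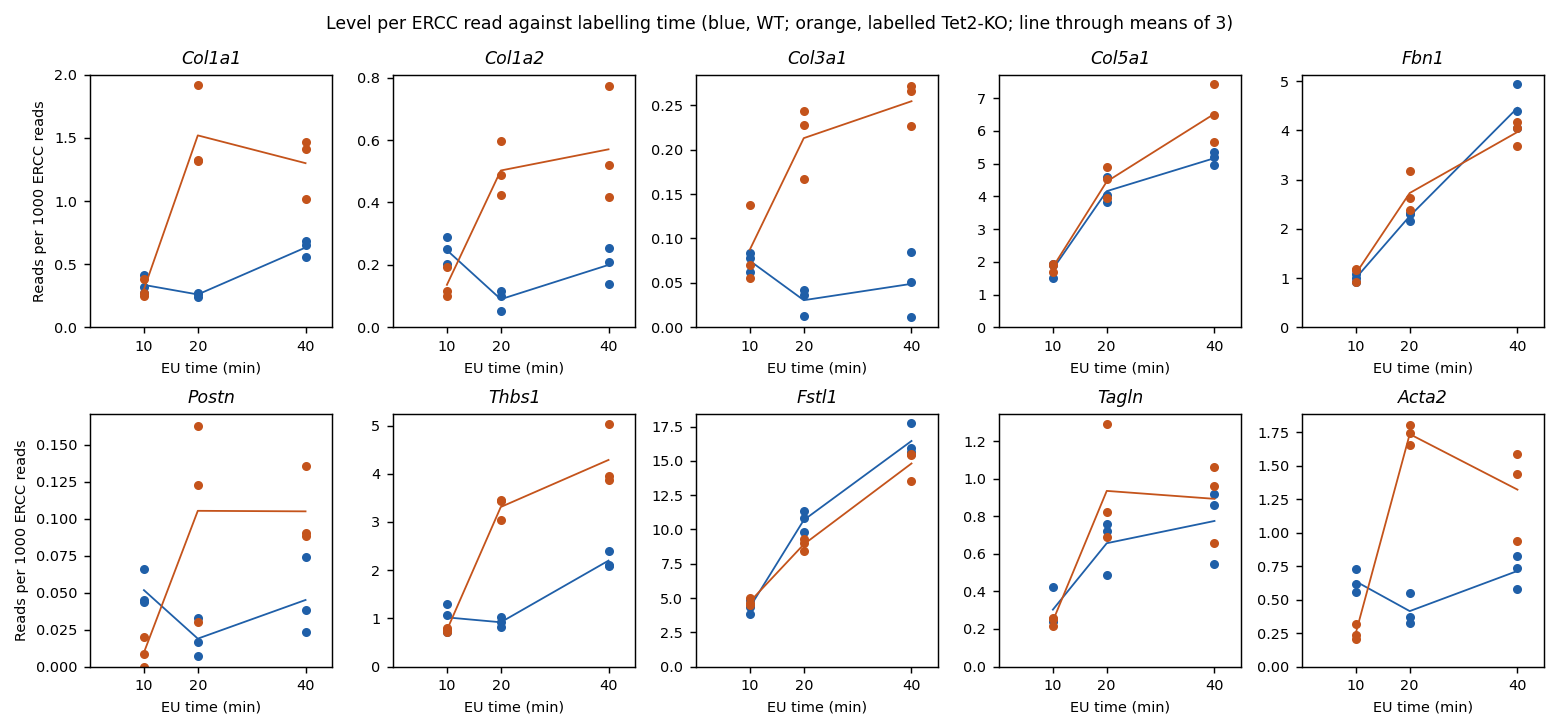
Reads per 1000 ERCC reads against EU time in min for the 10 genes (points, libraries; lines, means of 3; WT blue, labelled Tet2-KO orange). Col5a1, Fbn1 and Fstl1 climb in both genotypes, whereas Acta2 in WT goes from 0.636 to 0.414 and 0.714 and in Tet2-KO from 0.252 to 1.74 and 1.32.

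Col5a1, Fbn1 and Fstl1 accumulated on this scale in both genotypes. Fstl1 rose from 4.33 ± 0.50 to 10.7 ± 0.8 and 16.5 ± 1.1 reads per 1000 ERCC reads in WT and from 4.73 ± 0.26 to 8.91 ± 0.45 and 14.8 ± 1.1 in Tet2-KO. Fbn1 rose from 1.000 ± 0.081 to 2.26 ± 0.09 and 4.46 ± 0.45 in WT, and from 1.09 ± 0.15 to 2.73 ± 0.41 and 3.97 ± 0.25 in Tet2-KO. At 10 min the genotypes overlapped for Col5a1, Fbn1 and Fstl1 alike. From 10 to 40 min, 6 members were higher in WT (96.7% of all genes) and all 10 in Tet2-KO (94.7%).

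A line fitted to the level per 1000 ERCC reads against EU time gives a rate of accumulation, with 9 libraries per genotype. The sum of the 10 genes had a slope of 0.678 (SE 0.056) reads per 1000 ERCC reads and min in WT and 0.771 (SE 0.109) in Tet2-KO, a ratio of 1.14 (SE 0.19), beside 1.56 (SE 0.15) for all protein-coding genes. Fstl1 alone gave 0.388 (SE 0.039) in WT and 0.330 (SE 0.021) in Tet2-KO, and Fbn1 0.115 (SE 0.007) and 0.0911 (SE 0.0119). For Thbs1 the slopes were 0.0428 (SE 0.0086) and 0.108 (SE 0.022). The WT slopes of Col1a2, Col3a1, Postn and Acta2 lay within 2 SE of 0, at -0.00057 (SE 0.0023) for Col1a2 and 0.0044 (SE 0.0044) for Acta2, and no ratio is given for them. A straight line was a poor account of such genes, whose 3 time points did not follow an order, and the ratio of the sum was 1.54 from 10 and 20 min alone and 0.859 from 20 and 40 min alone.

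The genotype difference depended on the EU time. Taken as the mean over the 3 times, the share was higher in Tet2-KO for Col1a1 (0.40, SE 0.11, log2) and Col3a1 (1.05, SE 0.29), beside 24.6% of all genes, and lower for Fstl1 (-0.83, SE 0.03), Fbn1 (-0.66, SE 0.06), Tagln (-0.59, SE 0.14) and Col5a1 (-0.57, SE 0.05), beside 32.0%. At 10 min alone 9 members were lower in Tet2-KO (27.1% of genes were), and all 10 differences were negative. At 20 min alone 6 were higher (17.6%): Col3a1 by 2.34 (SE 0.52), Col1a1 by 2.05 (SE 0.20), Col1a2 by 2.01 (SE 0.33), Postn by 1.87 (SE 0.70), Acta2 by 1.60 (SE 0.17) and Thbs1 by 1.37 (SE 0.13). Col5a1 and Fstl1 were lower (20.7%). At 40 min Col3a1 was higher (18.9%), by 1.65 (SE 0.54), and 3 were lower, Col5a1, Fbn1 and Fstl1 (19.6%). Fstl1 kept a difference between -0.75 and -0.90 at all 3 times.

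Per ERCC read most of the transcriptome was higher in Tet2-KO, 80.5% of genes for the mean over times, with a median log2 difference of 0.70. For 6 members the level was higher, Col3a1 by 1.79 (SE 0.31), Col1a1 by 1.14 (SE 0.13), Col1a2 by 1.06 (SE 0.19), Thbs1 by 0.80 (SE 0.09), Acta2 by 0.54 (SE 0.12) and Col5a1 by 0.16 (SE 0.07). Fstl1 was the 1 member with a negative difference, -0.10 (SE 0.06), beside 4.15% of genes that were lower; without the third WT library at 10 min it was past the threshold. At 10 min 79.0% of genes were higher in Tet2-KO, whereas Col3a1, Col5a1, Fbn1 and Fstl1 had differences of 0.05 to 0.21 that were all within 2 SE of 0, and 4 members were lower (2.10% of genes). At 20 min 7 were higher (53.7%), by up to 2.82 (SE 0.56) for Col3a1, and Fstl1 was lower (4.86%), by a log2 difference of -0.26 (SE 0.10). At 40 min 6 were higher (68.2%). From 10 to 40 min the difference changed upward for 6 members (0.552%). On both scales the difference was negative at 10 min and positive at 20 and 40 min for Acta2, Col1a1, Col1a2, Thbs1 and Postn. At 40 min these 5 were not past the threshold by share, with 0.19 (SE 0.19) for Acta2 and 0.83 (SE 0.34) for Col1a2 as the lowest and highest, and per ERCC read neither Col1a1 at 10 min (-0.16, SE 0.21) nor Postn at 40 min (1.17, SE 0.75) was.

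**Figure D4:**
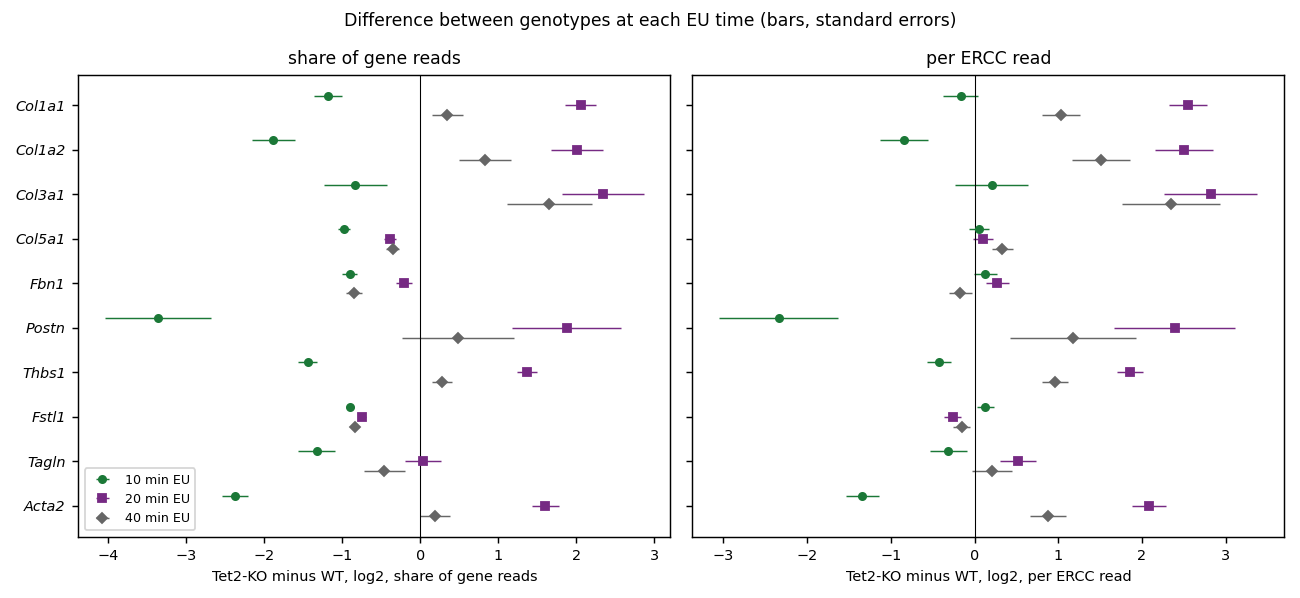
Tet2-KO minus WT, as log2 difference, of each of the 10 genes at 10 (circles), 20 (squares) and 40 min (diamonds) of EU, for the share of gene reads and per ERCC read, with standard errors. Acta2 goes from -2.37 at 10 min to 1.60 at 20 min on the share scale, whereas Fstl1 stays between -0.75 and -0.90.

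The wider matrix and contractile programme was read from 6 lists with 100 genes besides the members, of which 92 passed the filter on low counts. Between 10 and 20 min the median change of their share was -0.14 in WT and 0.05 in Tet2-KO (log2), with 28 genes lower and 17 higher in WT (11.1% and 8.95% of all genes) and 16 lower and 30 higher in Tet2-KO (8.27% and 11.2%). The Tet2-KO minus WT difference changed upward from 10 to 20 min for 18 of the 92 and downward for 5, beside 2.37% and 2.07% of all genes. The lists were chosen with earlier results of these data known, and this contrast was added after the values had been seen. The genes named below were also singled out after their values were seen. Their adjusted p-values therefore describe the spread between dishes and are not independent evidence. Tenascin-C (Tnc), an adhesion-modulating glycoprotein, stood at 25.1 ± 1.8 (SD, n = 3) CPM in WT at 10 min, 5.80 ± 0.22 at 20 min and 6.57 ± 1.34 at 40 min, and at 6.13 ± 1.38, 13.3 ± 1.4 and 5.56 ± 0.42 in Tet2-KO; the change of its difference was 3.22 (SE 0.20, log2; edgeR adjusted p = 6.56e-13). Lysyl oxidase (Lox), which cross-links collagen, gave 3.87 (SE 0.42; adjusted p = 1.29e-07), and Ccdc80, a matrix protein, 3.45 (SE 0.31; adjusted p = 3.04e-09).

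Other collagens held 3 genes that changed in this way out of 10 tested: Col12a1 (2.98, SE 0.23; edgeR adjusted p = 6.83e-11), which decorates type I fibrils, Col8a1 (2.42, SE 0.29; adjusted p = 1.02e-06) and Col5a2 (2.21, SE 0.20; adjusted p = 5.1e-09), the partner of Col5a1 in type V collagen. Col5a2 had 14.5 ± 1.4 CPM in WT at 10 min, 4.56 ± 0.11 at 20 min and 3.74 ± 0.24 at 40 min, and 6.05 ± 1.35, 8.89 ± 0.69 and 4.82 ± 0.60 in Tet2-KO, a wider swing than that of Col5a1. The list of elastic fibre, proteoglycan and glycoprotein genes held 4 of 17 (Tnc, Ccdc80, Bgn and Fbln2), and that of collagen processing 3 of 17 (Lox, Bmp1 and P4ha1). The actin list held 4 of 18, among them the smooth muscle genes Cnn1 (3.49, SE 0.86; adjusted p = 0.0125) and Actg2 (2.28, SE 0.46; adjusted p = 0.00186) with larger changes than Tpm2 (0.82, SE 0.20) and Cald1 (0.15, SE 0.04), while Mrtfa and Vcl changed the opposite way. Cnn1 rests on few reads, with 2 to 28 per library. Of 17 tested TGF-beta pathway genes 4 changed upward, among them the matricellular target Ccn2 (0.49, SE 0.09) and the integrins Itgb1 and Itgav.
The basement membrane list behaved otherwise. Of its 13 genes 3 changed in this contrast, all the opposite way and by small amounts: Lamc1 (-0.16, SE 0.03), Lama1 (-0.16, SE 0.04) and Col18a1 (-0.17, SE 0.05). Lamc1 was abundant and even, at 365 to 493 CPM as group means.

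Averaged over the EU times, the share of the 92 genes was higher in Tet2-KO for 31 and lower for 31, beside 24.6% and 32.0% of all genes. The largest differences in each list were taken by a fixed rule, from lists chosen with earlier results of these data known. Among collagens, Col16a1 (0.94, SE 0.30; edgeR adjusted p = 0.00719) and Col14a1 (0.69, SE 0.19; adjusted p = 0.00235) were higher and Col6a3 (-1.85, SE 0.35; adjusted p = 2.68e-05) and Col11a1 (-0.48, SE 0.09; adjusted p = 1.85e-05) lower. In the elastic fibre list, Fbln5, which guides elastin onto microfibrils, was higher by 1.51 (SE 0.09; adjusted p = 8.55e-16) and Mfap5 by 1.03 (SE 0.09), and Fbn2, the fibrillin partner of Fbn1, was lower (-0.79, SE 0.10; adjusted p = 2.59e-08). Tnc was lower on average (-0.36, SE 0.08), although it was higher at 20 min alone, by 1.19. Of the enzymes that modify collagen, P4ha3 (0.61, SE 0.25; adjusted p = 0.0415) and P3h1 (0.37, SE 0.07) were higher and P4ha2 (-1.23, SE 0.08; adjusted p = 2.19e-14) and Adamts2 (-0.60, SE 0.08) lower. Sparc (0.48, SE 0.03) and Col4a2 (0.46, SE 0.07) led the basement membrane genes upward, and Lamb1 (-0.34, SE 0.05) and Lamb2 (-0.32, SE 0.08) downward.
Among actin genes, Tpm4 (0.31, SE 0.03) and Mrtfa (0.25, SE 0.02), a coactivator of serum response factor, were higher, and Myocd (-1.33, SE 0.20), the smooth muscle coactivator, and Vcl (-0.42, SE 0.01) lower. In the TGF-beta pathway Smad3 (0.84, SE 0.03) and the inhibitory Smad7 (0.67, SE 0.02) were higher, and the ligand Tgfb2 (-0.82, SE 0.06) and Ccn2 (-1.02, SE 0.04) lower, with adjusted p below that of Tgfb2, 4.17e-14, for the other three.

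Genes most like the 10 were sought over 13538 protein-coding genes that were tested and had a log2 CPM of at least 0 on average, by the root-mean-square distance of the centred group means (log2, 6 groups) from the mean of the members. Among the nearest were Prss23 (0.11), Mical2 (0.15) and Col5a2 (0.19). Among the members the distance ran from 0.20 for Thbs1 to 0.64 for Col3a1.

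**Figure D5:**
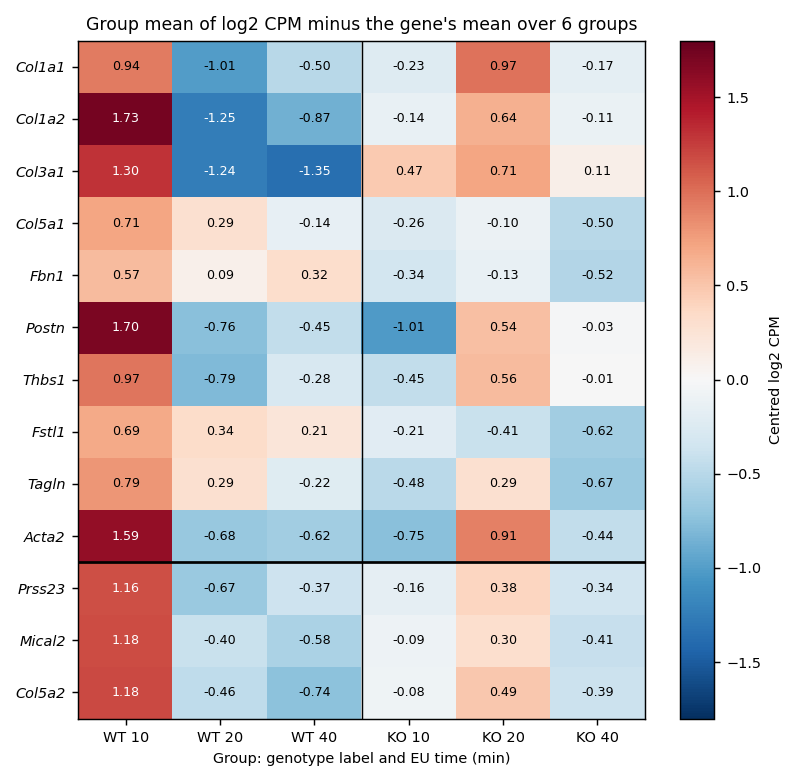
Group means of log2 CPM, centred on each gene's mean over 6 groups, for the 10 genes (above the line) and 3 of the genes nearest to their mean (below it), with the value in each cell. WT at 10 min is the highest group for every gene except Col1a1, where Tet2-KO at 20 min reaches 0.97 against 0.94.

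Of the fibroblast markers 9 could be tested, and between 10 and 20 min 3 fell in WT (Prrx1, -2.74, SE 0.40, edgeR adjusted p = 4.09e-06; Timp2, -0.79, SE 0.19, adjusted p = 0.00253; Fbln1, -0.55, SE 0.07, adjusted p = 6.68e-07). In Tet2-KO 1 rose, Vim (0.21, SE 0.06, edgeR adjusted p = 0.0154), and 1 fell, Fbln1 (-0.47, SE 0.08, adjusted p = 1.79e-05). Over all genes tested, 11.1% were lower in WT, and in Tet2-KO 11.2% were higher and 8.27% lower. This list and this contrast were likewise chosen with values of these data known, so the p-values are not independent evidence. Prrx1, a mesenchymal transcription factor, had 3.91 ± 0.63 (SD, n = 3) CPM in WT at 10 min, 0.581 ± 0.360 at 20 min and 1.53 ± 0.44 in Tet2-KO at 20 min. From 10 to 20 min its Tet2-KO minus WT difference in share changed upward by 3.06 (SE 0.56, log2), the direction seen for most members. No other tested fibroblast marker changed as much. Vim was past the threshold with 0.34 (SE 0.09), and 7 of the 9 were not, from -0.49 for Twist2 to 0.70 for Timp2. The median change was 0.08 for the 9 markers and 0.03 over all genes, of which 2.37% changed upward. Pdgfrb, a receptor of mesenchymal cells, had 6.76 ± 0.88, 5.16 ± 0.16 and 2.95 ± 0.43 in WT and 1.31 to 2.11 as group means in Tet2-KO. Smooth muscle markers, 7 in all, summed to 50.6 to 62.0, 51.2 to 53.8 and 46.0 to 48.6 CPM in WT at 10, 20 and 40 min. In Tet2-KO they summed to 44.1 to 56.3, 50.2 to 52.7 and 43.2 to 43.7. Smtn alone had 475 to 748 reads per library, against 2 to 28 for Cnn1 and 8 to 129 for Myocd. The sum therefore hides the differences of Cnn1 and Myocd given above, which belong to different contrasts. That of Cnn1 is the change of the genotype difference from 10 to 20 min, and that of Myocd the mean over EU times. For the change from 10 to 20 min, Cnn1 was the 1 smooth muscle marker of 7 past the threshold, beside 2.37% of all genes. The other 6 were not, with 0.30 (SE 0.47) for Myocd and -0.02 (SE 0.10) for Smtn. Primitive endoderm markers summed to 256 to 266, 230 to 234 and 212 to 217 in WT. In Tet2-KO they summed to 256 to 265, 207 to 215 and 193 to 199, so the genotypes overlapped at 10 min. Most of this sum was the laminin gene Lama1, with 3322 to 5604 reads per library. Dab2 had at most 222 reads, Gata4 147, Gata6 40, Pth1r 21, Sox7 16, and Sox17 and Foxa2 7. Mesoderm markers summed to at most 9.60 CPM in any library, endothelial and blood markers to at most 8.87, and trophectoderm markers to at most 4.05. The part of other cells in the values of the 10 genes was not tested, and in bulk RNA fewer cells of a type cannot be told apart from less RNA per cell.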

How the data were processed

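Nascent RNA was sequenced from 18 libraries, in 6 groups of genotype and EU time with 3 replicates each. Per the labels and the study's methods, the authors trimmed reads with Trimmomatic 0.39, aligned them with HISAT2 2.2.1 to mm10 with the ERCC sequences and counted reads per gene with HTSeq 0.12.4. Feature type, strand setting and overlap mode are not given in the sources used here. The deposited values are raw counts for 54446 genes and 92 ERCC transcripts.

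The genes passing filterByExpr (minimum count 10; 19910 genes) were fitted with edgeR 4.0.16 (quasi-likelihood F test, R 4.3.3), all 18 libraries in one model with a mean per group. Library size was either the reads on ERCC transcripts or the reads on all genes, with no further scaling. P-values were adjusted by Benjamini-Hochberg over all genes tested, with a threshold of 0.05. Rates were least-squares slopes of reads per 1000 ERCC reads on EU minutes. Alternatives were DESeq2 1.42.0, TMM, no filter, a replicate block and leaving out each library. The fit was tested on simulated data.

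The members and the gene lists were chosen with earlier results of these data known, and the contrasts at 20 min and each EU time alone were added after the values had been seen. Named beyond the members were, per pathway list, the called genes with the 2 highest and 2 lowest mean genotype differences in share, fibroblast markers at or under 3 reads throughout a genotype, Tet2, and the 5 nearest profiles, not all of which are reported here. Any further gene was chosen after its values were seen. All pairs of replicates differed by more than counting noise (chi-square per gene 1.63 to 5.26). Replicates are dishes of 1 line per genotype, so p-values measure the spread between dishes, and counting intervals cover counting error only.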

Additional observations from a re-analysis of the deposited data

Results flagged for a closer look

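For several of the 10 genes the difference between genotypes itself changed with EU time, by a test of that change (interaction of genotype and time, share of gene reads). The members were named with these libraries known, so the values describe the pattern and are not independent evidence for it. From 10 to 20 min the Tet2-KO minus WT difference changed by 5.23 (log2) for Postn, 3.97 for Acta2, 3.90 for Col1a2, 3.24 for Col1a1, 3.18 for Col3a1 and 2.81 for Thbs1. Smaller changes were seen for Tagln (1.36), Fbn1 (0.69) and Col5a1 (0.59). From 10 to 40 min it changed by 3.85 for Postn, 2.71 for Col1a2, 2.56 for Acta2, 2.49 for Col3a1, 1.72 for Thbs1, 1.53 for Col1a1 and 0.62 for Col5a1. Both spans share the 10 min libraries of each genotype. Postn rests on 0 to 4 reads per library in Tet2-KO at 10 min. The change for Tagln at 20 min lost its call without the third Tet2-KO library at 20 min, and that for Col3a1 at 40 min without the third WT library at 40 min.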

How the results depend on the processing

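The counts and the slope ratio stayed within 1.5 times, or the ratio within its SE, in 1075 recalculations and moved further in 27. Single EU times changed the mean genotype difference the most. Per ERCC read, 0 members were higher at 10 min only, and 4 were lower at 10 min only and 1 at 20 min only, with 1 lower also under TMM over the ERCC transcripts. For the share, 0, 6 and 1 members were higher at 10, 20 and 40 min only, and 9 and 2 were lower at 10 and 20 min only, while 19 pathway genes were higher at 10 min only and 20 lower at 20 min only. Directions that turned per ERCC read at 10 min only were Col1a1 -0.16, Col1a2 -0.84, Postn -2.34, Tagln -0.31, Acta2 -1.34, Thbs1 -0.43 and Fstl1 0.13 (log2), and Fbn1 -0.17 at 40 min only. For the share they were Col1a1 -1.19, Col1a2 -1.89, Col3a1 -0.84 and Thbs1 -1.44 at 10 min only, Postn 1.87, Tagln 0.035, Acta2 1.60 and Tnc 1.19 at 20 min only, and Postn 0.49 and Acta2 0.19 at 40 min only.
In the 40 minus 10 min change of the share in Tet2-KO, 1 member was lower with DESeq2, with no filter and with TMM over genes, and Col1a2 turned to 0.024 with DESeq2 and 0.028 with TMM. The change of the genotype difference from 10 to 40 min gave 7 higher and 17 lower pathway genes with DESeq2 and 15 lower with TMM, with Fbn1 at -0.0059 with DESeq2; from 10 to 20 min 10 were lower with DESeq2 and 8 with TMM. The ratio of summed slopes was 1.54 from 10 and 20 min and 0.859 from 20 and 40 min.
Leaving out each library in turn gave 5 to 6 members higher and 0 to 1 lower for the mean genotype difference per ERCC read, 0 to 1 higher and 1 to 2 lower for 40 minus 10 min in Tet2-KO (share), 3 to 5 higher for 20 minus 10 min in Tet2-KO (share), 3 to 6 lower for 20 minus 10 min in WT per ERCC read, 4 to 7 pathway genes lower for the change from 10 to 20 min, and slope ratios of 1.07 to 1.27. Signs turned for 40 minus 10 min in Tet2-KO for Col1a1 (-0.074 to 0.23), Col1a2 (-0.29 to 0.33) and Tagln (-0.29 to 0.057), and for the 10 to 40 min change of Fbn1 (-0.0096 to 0.11). Per ERCC read in WT they turned for Postn from 10 to 40 min (-0.75 to 0.14) and for Thbs1 from 10 to 20 min (-0.36 to 0.050). The sign also turned for Col3a1 from 10 to 20 min in Tet2-KO (-0.044 to 0.63). In the fit of all 18 libraries none of these genes was past the threshold for its contrast. Thbs1 was past it without the third WT library at 10 min. The causes of these changes were not tested.
Same-numbered replicates did not deviate together over the genes tested (45 pairs, correlation -0.0718 to 0.0642, median -0.00698). This cannot show whether same-numbered dishes were handled together, which the labels do not say. With the replicate block 6 members were higher in Tet2-KO per ERCC read, 2 higher and 4 lower by share, 17 pathway genes changed upward from 10 to 20 min, and the slope ratio was 1.14; 3 members instead of 4 were lower from 10 to 20 min in WT per ERCC read. Depth limits Postn and Col3a1, which had at most 5 and 8 reads in the WT libraries at 20 and 40 min apart from 1 Postn library with 7.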
